A study of Homo sapiens with 6 samples.

Results

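The genes described here are 36 genes of the integrated stress response and the unfolded protein response, of 25702 genes listed in the deposited table. They were taken by symbol in 2 arms, an ATF4 arm of 20 genes from ATF4 to SLC3A2 and an endoplasmic reticulum (ER) chaperone arm of 16 genes from HSPA5 to ERN1, and all 36 were found. The cells were RMS13, an established human rhabdomyosarcoma line, from a tumour type related to skeletal muscle, and their mRNA was sequenced. There were 3 libraries of cells given a small interfering RNA (siRNA) against GLI1, the transcription factor at the end of the Hedgehog pathway (group siGLI1), and 3 of cells given a non-targeting siRNA (group siNT2), all at 72 h. Both groups were the same unmodified line, grown in RPMI with fetal bovine serum, so the comparison rests on 1 cell line and 1 control siRNA. Whether the replicates were separate cultures is not stated in the labels, so every p-value here reflects the spread among 6 libraries and that spread may be technical.

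In the integrated stress response, kinases that sense amino acid shortage, ER stress, heme shortage or double-stranded RNA phosphorylate the translation factor eIF2α. Most translation slows, while the mRNA of the transcription factor ATF4 is translated more, and ATF4 switches on genes for amino acid synthesis and uptake, other transcription factors and feedback inhibitors. In the unfolded protein response, ERN1 (IRE1α) splices the mRNA of the transcription factor XBP1, and ATF6 is cut free from the membrane. Both then act at promoters of ER chaperones, folding enzymes and genes of ER-associated degradation, the removal of misfolded proteins. ER stress can start both responses at once, whereas amino acid shortage acts through eIF2α.

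The 2 arms carried different response elements in their promoters. Windows of 300 bases, from 250 before to 50 after the annotated start, were read from RefSeq on GRCh38.p14 for 33 of the 36 genes (PSPH, NUPR1 and SLC7A11 had no entry). Both strands were searched for exact letters. The ER stress response element (ERSE), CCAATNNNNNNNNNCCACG, was in the windows of CALR, CRELD2, HSP90B1, HSPA5, PDIA6 and XBP1. The shorter ERSE-II, ATTGGNCCACG, was in those of HERPUD1, HYOU1 and SDF2L1. One or the other was present in 9 of the 16 ER chaperone genes and in 0 of the 17 ATF4 arm genes with a window, against 44 of 27305 genes in RefSeq, where ERSE was in 0.0916% and ERSE-II in 0.0696%. The element bound by C/EBP-ATF dimers such as those of ATF4 (CARE), TGATGNAA, is less particular and was in 4.46% of genes. It was in the windows of ATF3, ASNS, CHAC1 and SLC3A2 of the ATF4 arm and of HERPUD1 of the ER chaperone arm. The cyclic AMP response element (CRE), TGACGTCA, was in 2.25% of genes and in the window of PPP1R15A. The unfolded protein response element TGACGTGG, in 0.927% of genes, was in that of HYOU1, where it overlaps an ERSE-II by part of its letters. The GLI binding sequence GACCACCCA was in 0.297% of genes and in no window of the 33. A match is a description of letters, not of binding, and a window without one says nothing about a factor.

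The promoters below are of genes that rose (ATF3, PPP1R15A, HERPUD1), fell (CALR, XBP1) or did not pass the test (HSPA5), written 5′ to 3′ on the gene's strand with the matched elements in capitals. Their positions are chr1:212565157-212565456 (plus strand) for ATF3, chr19:48872171-48872470 (plus) for PPP1R15A, chr16:56931892-56932191 (plus) for HERPUD1, chr9:125241294-125241593 (minus) for HSPA5, chr19:12938359-12938658 (plus) for CALR and chr22:28800520-28800819 (minus) for XBP1. The capitals mark a CARE in ATF3, a CRE in PPP1R15A, a CARE followed by an ERSE-II in HERPUD1, and an ERSE in the other three.
ATF3: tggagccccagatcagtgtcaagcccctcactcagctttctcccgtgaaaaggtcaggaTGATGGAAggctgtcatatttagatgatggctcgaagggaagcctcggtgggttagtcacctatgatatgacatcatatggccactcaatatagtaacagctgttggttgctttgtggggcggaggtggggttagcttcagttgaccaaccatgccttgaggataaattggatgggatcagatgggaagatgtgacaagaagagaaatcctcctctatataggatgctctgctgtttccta
PPP1R15A: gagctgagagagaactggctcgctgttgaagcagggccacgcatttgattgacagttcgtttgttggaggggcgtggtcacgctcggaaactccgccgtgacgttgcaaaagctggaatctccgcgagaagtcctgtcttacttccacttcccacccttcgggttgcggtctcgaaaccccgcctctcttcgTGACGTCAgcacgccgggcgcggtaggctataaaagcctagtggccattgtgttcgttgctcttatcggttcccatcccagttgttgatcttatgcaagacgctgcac
HERPUD1: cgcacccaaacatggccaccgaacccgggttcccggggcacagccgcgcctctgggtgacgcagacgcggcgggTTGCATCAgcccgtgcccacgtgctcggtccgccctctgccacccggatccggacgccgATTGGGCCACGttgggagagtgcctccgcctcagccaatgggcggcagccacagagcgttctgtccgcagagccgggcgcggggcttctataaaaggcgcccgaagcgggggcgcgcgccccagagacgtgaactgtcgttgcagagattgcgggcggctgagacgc
HSPA5: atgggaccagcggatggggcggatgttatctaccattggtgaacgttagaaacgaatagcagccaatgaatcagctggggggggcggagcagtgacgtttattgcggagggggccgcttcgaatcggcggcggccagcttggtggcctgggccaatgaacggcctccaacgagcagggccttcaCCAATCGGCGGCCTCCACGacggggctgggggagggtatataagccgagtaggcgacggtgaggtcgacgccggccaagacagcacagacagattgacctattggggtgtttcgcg
CALR: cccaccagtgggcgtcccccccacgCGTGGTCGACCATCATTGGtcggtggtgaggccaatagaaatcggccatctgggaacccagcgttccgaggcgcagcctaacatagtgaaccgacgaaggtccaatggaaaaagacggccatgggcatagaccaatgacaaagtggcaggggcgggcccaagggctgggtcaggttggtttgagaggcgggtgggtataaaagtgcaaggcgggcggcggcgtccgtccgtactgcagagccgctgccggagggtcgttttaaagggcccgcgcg
XBP1: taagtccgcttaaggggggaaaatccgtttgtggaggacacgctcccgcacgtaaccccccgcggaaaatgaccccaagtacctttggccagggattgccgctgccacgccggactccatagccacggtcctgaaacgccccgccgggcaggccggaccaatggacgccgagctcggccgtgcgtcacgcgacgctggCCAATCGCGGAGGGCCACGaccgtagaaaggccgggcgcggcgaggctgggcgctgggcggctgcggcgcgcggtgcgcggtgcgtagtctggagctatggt

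**Figure D1:**
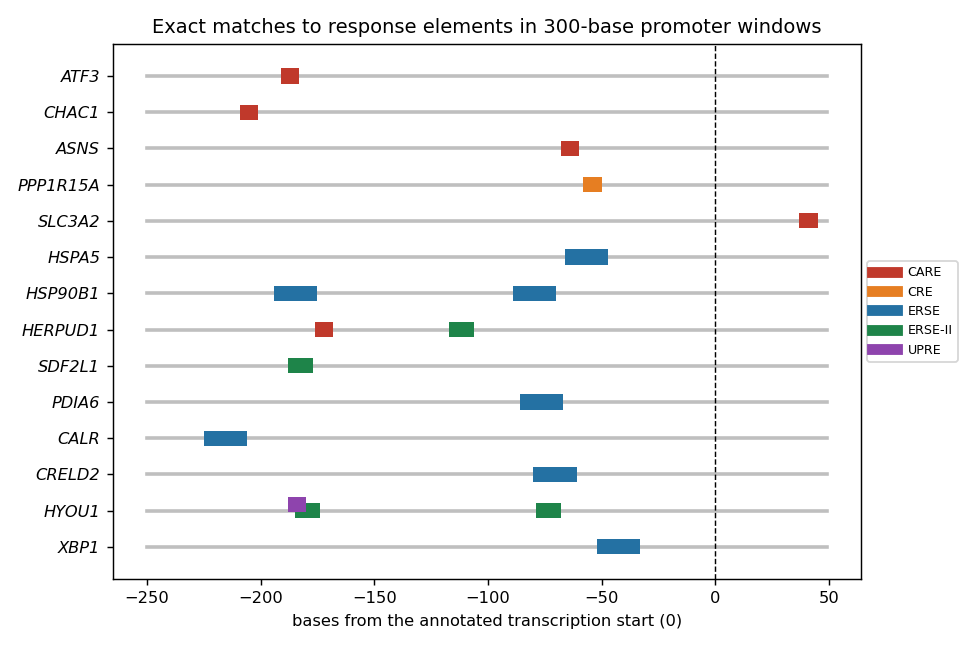
Positions of exact matches to 5 response elements in the promoter windows of the 14 genes that held one. The x axis is the distance in bases from the annotated transcription start, each grey line is 1 gene's window of 300 bases, and colours name the element; ERSE and ERSE-II lie in ER chaperone arm genes, and HERPUD1 is the gene with both a CARE and an ERSE-II.

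Of the ATF4 arm, 5 genes rose and 3 fell in siGLI1 cells. ATF3, VLDLR, PPP1R15A, TRIB3 and NUPR1 were higher, and the enzymes MTHFD2 and SHMT1 and the amino acid transporter SLC7A5 were lower. Of the ER chaperone arm, HERPUD1 rose, and CALR, PDIA4 and XBP1 fell. ATF4 itself and HSPA5, the gene most used to read the unfolded protein response, did not pass the test. Fold changes here and below compare siGLI1 with siNT2 as a difference of means of log2(normalised read count + 1), positive where siGLI1 is higher, and a gene is said to have risen or fallen where limma gave an adjusted p under 0.05. Of 15622 genes tested 7.21% were called higher and 8.0% lower, which is the background for these counts. For comparison, 25% of the ATF4 arm and 6.25% of the ER chaperone arm were called higher, and 15.0% and 18.8% lower.

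**Figure D2:**
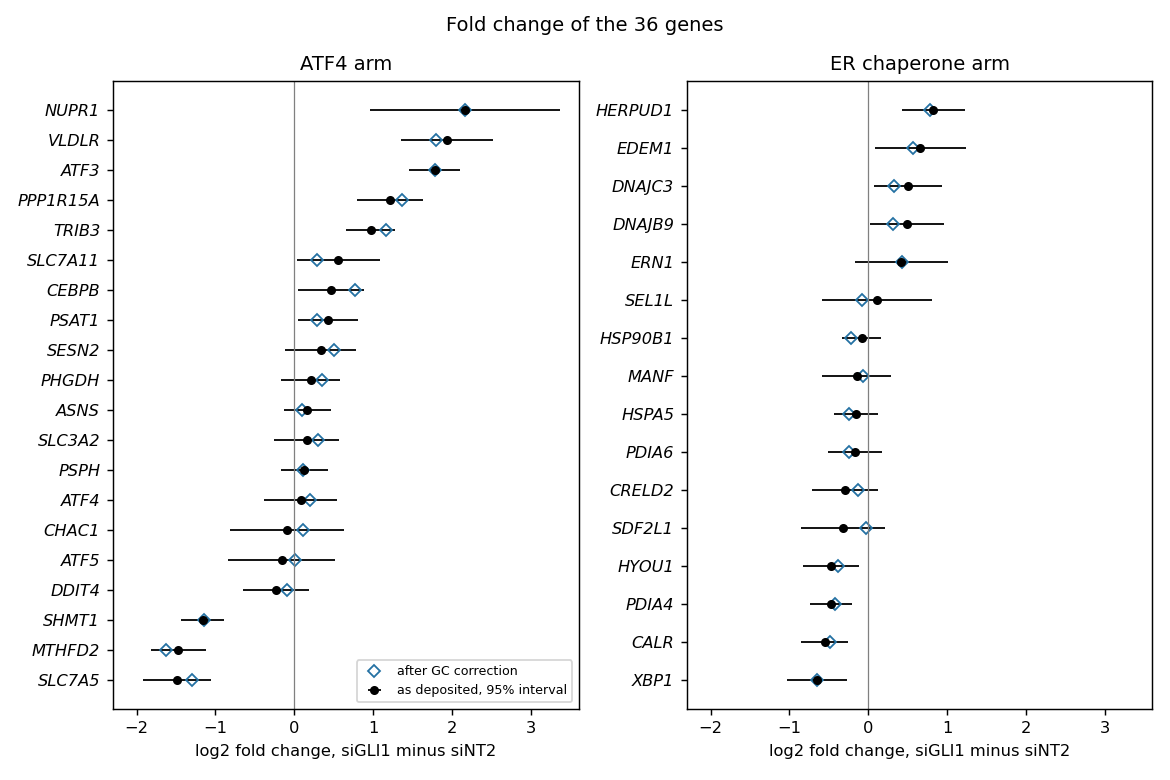
Log2 fold change (x axis, siGLI1 minus siNT2) of each of the 36 genes, ATF4 arm at left and ER chaperone arm at right. Black points are the fitted values with 95% intervals from limma, and open diamonds the values after removal of the trend with GC content; the ATF4 arm spreads from -1.49 for SLC7A5 to 2.16 for NUPR1, the ER chaperone arm from -0.65 for XBP1 to 0.83 for HERPUD1.

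The libraries held 13673977 to 18947614 recovered reads, with 19355 to 20292 genes detected, and 3 reads were worth 2.39 to 3.29 normalised reads. GLI1 (Entrez gene 2735) was at 11962.5, 17836.9 and 12774.1 in siNT2 and at 579.9, 905.8 and 1274.1 in siGLI1, the siGLI1 mean being 6.48% of the siNT2 mean. Of 10 skeletal muscle tumour markers 9 were tested, and the summed level of the 10 was 58532.4 to 80180.4 in siNT2 and 60972.7 to 91472.7 in siGLI1 libraries, with DES and CHRNA1 called higher. DES lost its call without siNT2 replicate 1, and CHRNA1 without siNT2 replicate 1 or siGLI1 replicate 2 (adjusted p of 0.0535 at most for DES and 0.0696 for CHRNA1). The other 7 muscle markers tested were not called, and the median log2 fold change of the 9 was -0.01, with 5 below 0. Of the markers of other cells, 7 of 8 epithelial markers and 7 of 8 blood cell markers had a mean under 10, with HBB at 0 throughout, and the summed epithelial level was at most 67.0 in siNT2 and 51.1 in siGLI1. Of 7 endothelial markers 4 had a mean under 10, and PECAM1 was higher in siGLI1, with a mean of 86.3 ± 4.54 against 11.0 ± 4.71 (SD, n = 3 each). The other endothelial markers tested, TEK and CLDN5, overlapped between the groups. TEK was at -0.37 on the log2 scale (adjusted p = 0.523) and CLDN5 at 0.62 (adjusted p = 0.351). In such bulk RNA, fewer cells that express a gene and less RNA per cell cannot be told apart. The part of these markers in the results was not tested.

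Among the transcription factors of the ATF4 arm, ATF3 rose and ATF4 did not pass the test. ATF3 (Entrez gene 467, chromosome 1) is a stress-induced factor whose gene ATF4 binds. Its normalised read counts were 678.6, 588.2 and 769.5 under siNT2 and 2365.1, 2239.9 and 2348.6 under siGLI1, with means of 678.8 ± 90.6 and 2318 ± 68.0 (SD, n = 3 each). All 3 siGLI1 libraries lay close together and far above every siNT2 library. The 3.41-fold difference of the means corresponded to a log2 fold change of 1.78 (standard error 0.14, 95% interval 1.45 to 2.10, adjusted p = 0.000548). ATF4 (Entrez gene 468) read 4654.8, 5464.6 and 4212.0 in siNT2 and 4301.4, 4416.4 and 6699.2 in siGLI1 libraries. The groups overlapped, and siGLI1 replicate 3 alone stood above all siNT2 libraries. The fitted log2 fold change of ATF4 was 0.08 (standard error 0.20, 95% interval -0.38 to 0.54, adjusted p = 0.808), so a change of its mRNA by up to 0.54 on the log2 scale lies within the interval. ATF4 protein is set largely by translation, which RNA sequencing does not measure.

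NUPR1, a small nuclear stress protein, was near the detection floor in siNT2, at 1.1, 8.1 and 4.0, and read 17.3, 20.4 and 20.7 in siGLI1 libraries. It was called higher (log2 fold change 2.16, standard error 0.52, adjusted p = 0.0314), and every siGLI1 library was above every siNT2 library. The call rests on few reads and was lost on leaving out any of 4 of the 6 libraries, siNT2 replicates 1 and 3 and siGLI1 replicates 1 and 2, with an adjusted p of up to 0.124. CEBPB, a factor that pairs with ATF4, read 143.0 to 153.7 in siNT2 and 173.9 to 252.8 in siGLI1 libraries. These ranges did not overlap, but the log2 fold change of 0.46 did not pass the test (adjusted p = 0.127). ATF5, which like ATF4 is controlled through upstream reading frames, read 582.1 to 1041.6 in siNT2 and 531.3 to 985.7 in siGLI1 (adjusted p = 0.746). The annotated span of ATF5 overlaps that of NUP62, whose reads may not be separable without strand. NUP62 read 3114.0 to 3917.9 in siNT2 and 1438.5 to 1837.0 in siGLI1, so the values of ATF5 carry some uncertainty. The part of shared reads was not tested.

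The inhibitors that close the response off, or that restrain growth signalling, split. PPP1R15A (GADD34, Entrez gene 23645) brings a phosphatase to eIF2α and so ends the translation block. Its counts were 587.5, 729.2 and 643.5 in siNT2 and 1268.9, 1422.1 and 1890.4 in siGLI1. The siGLI1 mean of 1527 ± 324 (SD, n = 3) was 2.34 times the siNT2 mean of 653.4 ± 71.4 (SD, n = 3), with no overlap (log2 fold change 1.21, standard error 0.18, 95% interval 0.79 to 1.63, adjusted p = 0.00588). TRIB3 (Entrez gene 57761), a pseudokinase induced by ATF4 that binds and restrains it, read 306.4, 278.9 and 271.1 in siNT2 and 559.4, 534.7 and 584.7 in siGLI1 libraries. This was 1.96 times as high, with little spread inside either group (log2 fold change 0.97, standard error 0.13, 95% interval 0.66 to 1.28, adjusted p = 0.00422). SESN2, a leucine sensor that lowers mTORC1 activity, read 301.4 to 426.0 in siNT2 and 381.2 to 522.5 in siGLI1 (adjusted p = 0.281). DDIT4 (REDD1), another mTORC1 inhibitor, read 886.7 to 1371.5 and 886.4 to 1002.2 (adjusted p = 0.41). CHAC1, a glutathione-degrading enzyme and a standard ATF4 target, was low in all 6 libraries, between 22.5 and 41.5, and its groups overlapped (log2 fold change -0.09, 95% interval -0.81 to 0.62, adjusted p = 0.862).

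VLDLR (Entrez gene 7436), a lipoprotein receptor that ER stress raises through ATF4 in liver, had the largest ratio of group means among members called higher other than NUPR1. It read 106.5, 111.6 and 185.0 in siNT2 and 462.2, 615.4 and 433.6 in siGLI1 libraries. Every siGLI1 library was far above every siNT2 library, and the means of 134.4 ± 43.9 and 503.7 ± 97.8 (SD, n = 3 each) differed 3.75-fold. The log2 fold change was 1.93 (standard error 0.25, 95% interval 1.34 to 2.51, adjusted p = 0.00348). VLDLR-AS1, a non-coding gene that overlaps it, read at most 12.3 in any library.

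The serine and one-carbon enzymes did not move together. PHGDH, PSAT1 and PSPH carry out the successive steps of serine synthesis, and ASNS makes asparagine. None of the 4 passed the test, with log2 fold changes of 0.21 for PHGDH (adjusted p = 0.423), 0.42 for PSAT1 (adjusted p = 0.125), 0.13 for PSPH (adjusted p = 0.533) and 0.16 for ASNS (adjusted p = 0.423), edgeR and DESeq2 likewise calling none of them; at an unadjusted p, PSAT1 was under 0.05. The groups were nonetheless apart for PSAT1, at 1053.8 to 1423.1 in siNT2 and 1445.9 to 1879.1 in siGLI1, and for ASNS, at 555.8 to 603.9 and 612.4 to 696.3. RefSeq lists pseudogene copies of ASNS, PSAT1 and PSPH, so these values carry some uncertainty.

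The folate enzymes SHMT1 and MTHFD2 fell. SHMT1 (Entrez gene 6470), which moves a carbon from serine to folate in the cytosol, read 1458.2, 1518.3 and 1507.1 in siNT2 and 649.0, 659.4 and 691.4 in siGLI1. The spread within each group was small beside the gap, and the siGLI1 mean of 666.6 ± 22.1 was 44.6% of that in siNT2, 1495 ± 31.9 (SD, n = 3 each). The fitted log2 difference of SHMT1 was -1.16 (standard error 0.12, adjusted p = 0.00138). MTHFD2 (Entrez gene 10797), the mitochondrial folate dehydrogenase that ATF4 is known to induce, read 1841.5, 1520.3 and 1980.8 in siNT2 and 699.8, 642.0 and 578.8 in siGLI1. Its siGLI1 mean of 640.2 ± 60.5 was 35.9% of that in siNT2, 1781 ± 236 (SD, n = 3 each), which is -1.47 on the log2 scale (standard error 0.15, adjusted p = 0.00148). MTHFD2 thus moved opposite to ATF3 and TRIB3. The span of SLC4A5 overlaps MTHFD2, and SLC4A5 also read lower in siGLI1, at 88.6 to 122.7 against 190.6 to 267.8. SMCR8 overlaps SHMT1 and read 3596.4 to 4948.1 in siNT2 and 3500.2 to 4581.1 in siGLI1. SHMT1 and MTHFD2 also have pseudogene copies in RefSeq.

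Of the 3 transporter genes of the arm SLC7A5 fell, and SLC7A11 and SLC3A2 did not pass the test. SLC7A5 (LAT1, Entrez gene 8140) is the light chain of a transporter of leucine and other large amino acids, SLC7A11 that of the cystine-glutamate exchanger, and SLC3A2 the heavy chain that both need. SLC7A5 read 4077.2, 6217.1 and 4984.0 in siNT2 and 1717.1, 1590.7 and 2093.8 in siGLI1 libraries. All siGLI1 libraries lay far under the lowest siNT2 library, and the mean of 1801 ± 262 was 35.4% of 5093 ± 1074 (SD, n = 3 each). The log2 fold change of SLC7A5 was -1.49 (standard error 0.19, 95% interval -1.92 to -1.05, adjusted p = 0.00294). Its near-copies SLC7A5P1 and SLC7A5P2, with which reads may be shared, were not lower in siGLI1. SLC7A5P2 read 484.8 to 625.8 in siNT2 and 592.6 to 679.3 in siGLI1, and SLC7A5P1 49.4 to 70.3 and 85.9 to 106.9. SLC3A2 read 2157.9 to 2836.7 in siNT2 and 2317.6 to 3304.7 in siGLI1 (log2 fold change 0.15, adjusted p = 0.592). Per kilobase of transcript, SLC7A5 and SLC3A2 were level in siNT2 cells, with normalised reads of 1122 per kilobase each, while in siGLI1 cells they were at 396.9 and 1255. SLC7A11 read 91.1, 90.3 and 100.5 in siNT2 and 164.2, 162.5 and 99.8 in siGLI1, where replicate 3 alone stood at the siNT2 level. Its log2 fold change of 0.56 had an adjusted p of 0.141, and of 0.0224 without siGLI1 replicate 3.

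**Figure D3:**
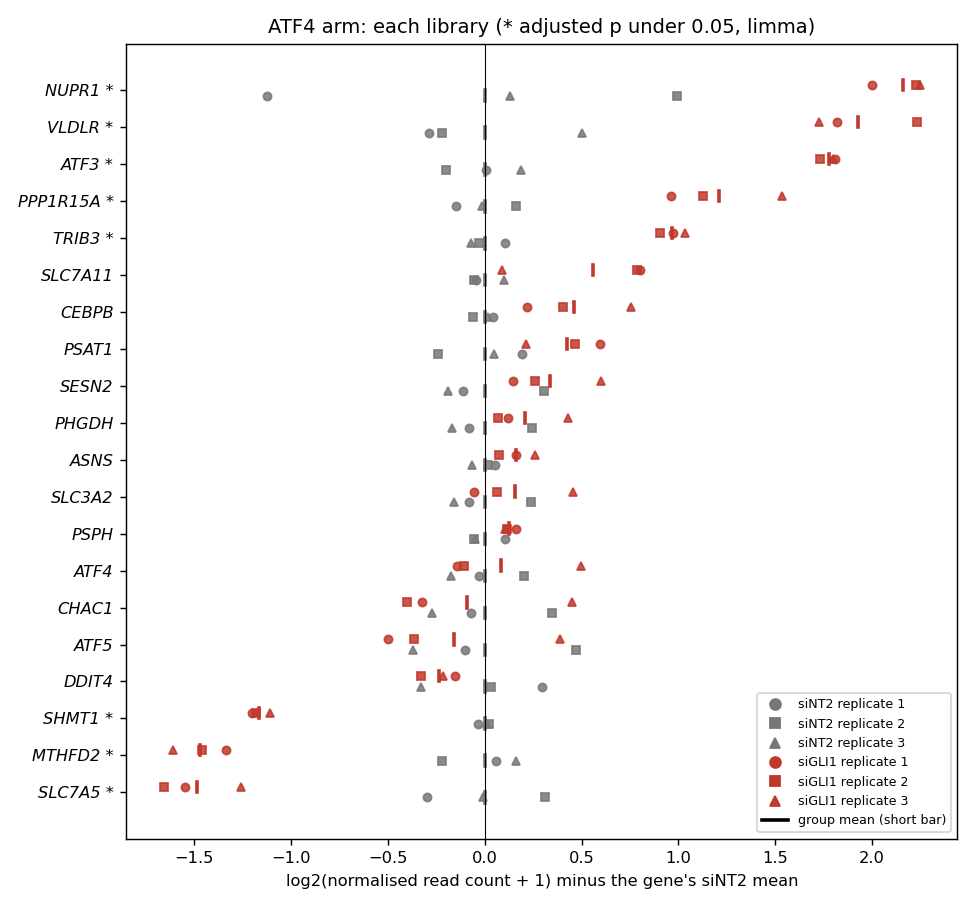
Each library of the 20 ATF4 arm genes, as log2(normalised read count + 1) minus the gene's siNT2 mean (x axis); grey symbols are siNT2 and red siGLI1 libraries, the shape gives the replicate, short bars are group means and asterisks mark an adjusted p under 0.05. The siGLI1 symbols of ATF3, TRIB3 and SHMT1 cluster tightly and apart from siNT2, while those of ATF4, ATF5 and CHAC1 straddle it.

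In the ER chaperone arm CALR and PDIA4 fell, and HSPA5, HSP90B1 and HYOU1 did not pass the test. HSPA5 (BiP, Entrez gene 3309) is the main ER Hsp70 chaperone and the classical readout of the unfolded protein response. It read 10749.1, 10330.7 and 10778.9 in siNT2 and 8580.2, 9561.8 and 10436.4 in siGLI1. The highest siGLI1 library lay within the siNT2 range, and no difference passed the test (log2 fold change -0.16, standard error 0.12, 95% interval -0.44 to 0.12, adjusted p = 0.397). A rise of HSPA5 by more than 0.12 on the log2 scale lies outside that interval. HSP90B1 (GRP94), the ER Hsp90, read 6972.7 to 7414.2 in siNT2 and 6585.5 to 6932.4 in siGLI1 (adjusted p = 0.62). HYOU1, which exchanges nucleotide on BiP, read 2934.6 to 3463.5 in siNT2 and 1933.1 to 2618.2 in siGLI1, with a log2 fold change of -0.47 (adjusted p = 0.076). Without siGLI1 replicate 3 the adjusted p of HYOU1 was 0.033.

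CALR (calreticulin, Entrez gene 811), the lectin chaperone that also stores calcium, was the highest of the arm per kilobase of transcript, at 8125 normalised reads per kilobase in siNT2 against 2717 for HSPA5. Its counts were 14693.4, 14002.2 and 17689.5 in siNT2 and 10143.9, 10847.9 and 10447.3 in siGLI1. The groups were apart, and the siGLI1 mean of 10479.7 ± 353 was 67.8% of that in siNT2, 15461.7 ± 1960.0 (SD, n = 3 each). The log2 fold change of CALR was -0.55 (standard error 0.13, 95% interval -0.85 to -0.26, adjusted p = 0.0274). PDIA4 (Entrez gene 9601), a disulfide isomerase, read 5917.5, 5943.3 and 5731.9 in siNT2 and 3955.8, 4225.3 and 4522.4 in siGLI1. It fell by 0.47 (standard error 0.11, adjusted p = 0.0314), again with no overlap. The related PDIA6 overlapped between the groups, at 2880.4 to 3650.6 and 2582.7 to 3232.3 (adjusted p = 0.461).

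HERPUD1 (Entrez gene 9709), a membrane protein that organises ER-associated degradation, was the member of the arm that rose. It read 744.5, 569.0 and 861.2 in siNT2 and 1266.8, 1338.2 and 1199.0 in siGLI1. Every siGLI1 library was above every siNT2 library, and the means of 724.9 ± 147 and 1268 ± 69.6 (SD, n = 3 each) differed 1.75-fold (log2 fold change 0.83, standard error 0.17, 95% interval 0.42 to 1.23, adjusted p = 0.0198). As shown above, its promoter held both a CARE and an ERSE-II, and no other member's window held this pair. EDEM1, which leads misfolded glycoproteins to degradation, read 875.2, 579.1 and 993.6 in siNT2 and 1462.2, 1414.9 and 959.0 in siGLI1, where replicate 3 lay inside the siNT2 range (log2 fold change 0.66, adjusted p = 0.115). The same library was lowest of its group for SEL1L, the adaptor of the HRD1 ligase, which read 512.2 to 896.3 in siNT2 and 504.7 to 1015.1 in siGLI1 (adjusted p = 0.839).

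The co-chaperones DNAJB9 and DNAJC3 read higher without passing the test. DNAJB9 (ERdj4), which represses ERN1, was at 209.9 to 272.3 in siNT2 and 269.6 to 394.6 in siGLI1 (log2 fold change 0.49, adjusted p = 0.145). DNAJC3 (p58IPK), which also inhibits eIF2α kinases, was at 430.0 to 578.9 and 608.4 to 845.6, with no overlap (log2 fold change 0.50, adjusted p = 0.109). Without siGLI1 replicate 3 the adjusted p was 0.0364 for DNAJB9, 0.0432 for DNAJC3 and 0.0397 for EDEM1. SDF2L1, CRELD2 and MANF, small ER proteins that the unfolded protein response raises, had log2 fold changes of -0.32, -0.30 and -0.15, and the groups overlapped for all 3.

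XBP1 (Entrez gene 7494), the transcription factor of the IRE1 branch, fell. It read 726.9, 590.3 and 809.4 in siNT2 and 496.8, 438.6 and 413.8 in siGLI1 libraries. The siGLI1 mean of 449.7 ± 42.6 was 63.4% of that in siNT2, 708.9 ± 111 (SD, n = 3 each), with a log2 difference of -0.65 (standard error 0.16, 95% interval -1.03 to -0.27, adjusted p = 0.0368). Counts per gene do not show whether its mRNA was spliced. ERN1, the kinase and endonuclease that splices it, was low in both groups, at 32.5 to 49.4 and 47.0 to 70.2 (adjusted p = 0.297).

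The calls of this arm depended on single libraries. On leaving out each of the 6 in turn, CALR lost its call without siNT2 replicate 1 or 3 or siGLI1 replicate 1 or 2 (adjusted p up to 0.106), and HERPUD1 without siNT2 replicate 1 or siGLI1 replicate 2 (up to 0.106). PDIA4 lost its call without any library but siGLI1 replicate 3 (adjusted p up to 0.139), and XBP1 without any but siNT2 replicate 2 (up to 0.154). In the ATF4 arm, ATF3, TRIB3, VLDLR, PPP1R15A, SHMT1, MTHFD2 and SLC7A5 kept theirs in all 6 fits. With the replicate number as a block in limma, HERPUD1, PDIA4, CALR and XBP1 all lost their calls. In that fit the ATF4 arm kept 5 genes called higher and 3 lower.

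**Figure D4:**
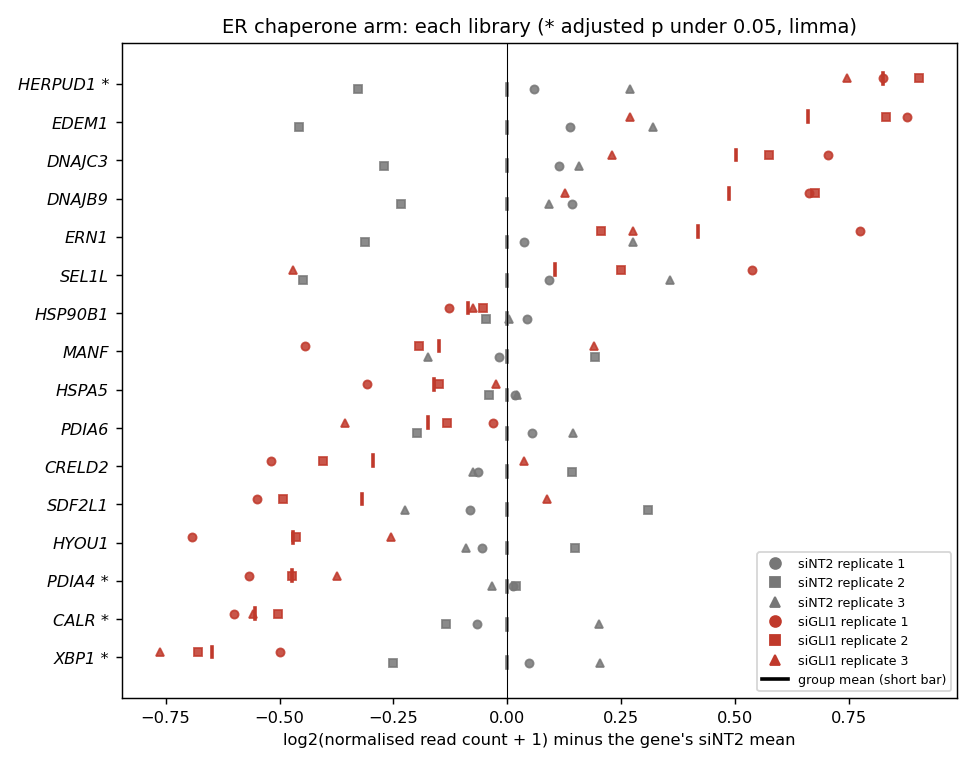
Each library of the 16 ER chaperone arm genes on the same scale, symbols and marks as for the ATF4 arm, with a narrower x axis. HERPUD1 lies to the right of its siNT2 libraries in all 3 siGLI1 libraries, XBP1, CALR and PDIA4 lie to the left, and siGLI1 replicate 3 (red triangles) is the siGLI1 library nearest to the siNT2 mean for EDEM1, DNAJC3 and DNAJB9.

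Set side by side, the medians of the arms lay on either side of 0. The median log2 fold change was 0.18 over the ATF4 arm and -0.16 over the ER chaperone arm, against -0.01 over all tested genes. Fitted values were above 0 in 14 of the 20 ATF4 arm genes and in 6 of the 16 ER chaperone arm genes. siGLI1 and siNT2 libraries were fully apart in 11 genes of the ATF4 arm (8 higher, 3 lower) and in 7 of the ER chaperone arm (2 higher, 5 lower), against 36.2% of all genes in either direction. By library, the median of the ATF4 arm relative to the siNT2 mean was -0.04, 0.03 and -0.03 in siNT2 and 0.15, 0.10 and 0.44 in siGLI1. For the ER chaperone arm it was 0.04, -0.17 and 0.12 in siNT2 and -0.22, -0.14 and 0.01 in siGLI1. The siGLI1 libraries of the ATF4 arm thus lay above all siNT2 libraries, by most in replicate 3, while those of the ER chaperone arm overlapped siNT2. No test was made between the arms, since their members were chosen with results of these data known.

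Part of the spread within groups followed GC content. Each library's departure from the mean of its group was rank-correlated across all genes with transcript GC content, with coefficients of -0.49, 0.70 and -0.60 in siNT2 and -0.69, -0.31 and 0.75 in siGLI1 (a description over genes, which are not replicates). GC content differed between the arms, with a median of 57.4% in the ATF4 arm and 49% in the ER chaperone arm, against 49.5% over all tested genes. Of the 14 members with a GC content of 55% or more, 11 were highest of siNT2 in replicate 2 and 13 highest of siGLI1 in replicate 3. Of the 8 members at 45% or less, 7 were lowest in each of those same libraries. The pattern reaches ATF4, ATF5 and SESN2 on the GC-rich side and SLC7A11, SEL1L, DNAJC3 and DNAJB9 on the GC-poor side, as their values above show.

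With this trend removed, 10 genes of the ATF4 arm were called higher and 3 lower, and 3 and 4 of the ER chaperone arm, where 16.3% of 14647 genes were called higher and 17.2% lower. The 12 calls made without the correction were kept with it. The genes added were PSAT1 (log2 fold change 0.28, adjusted p = 0.0412), PHGDH (0.35, 0.0176), SESN2 (0.50, 0.00498), CEBPB (0.76, 0.019) and SLC3A2 (0.29, 0.023) of the ATF4 arm. In the ER chaperone arm DNAJC3 (0.32, 0.0228) and EDEM1 (0.56, 0.0261) were added as higher and HYOU1 (-0.38, 0.0101) as lower. The corrected medians were 0.29 for the ATF4 arm and -0.11 for the ER chaperone arm. ATF4 (0.20, 0.205) and HSPA5 (-0.24, 0.194) did not pass the test with the correction either.

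**Figure D5:**
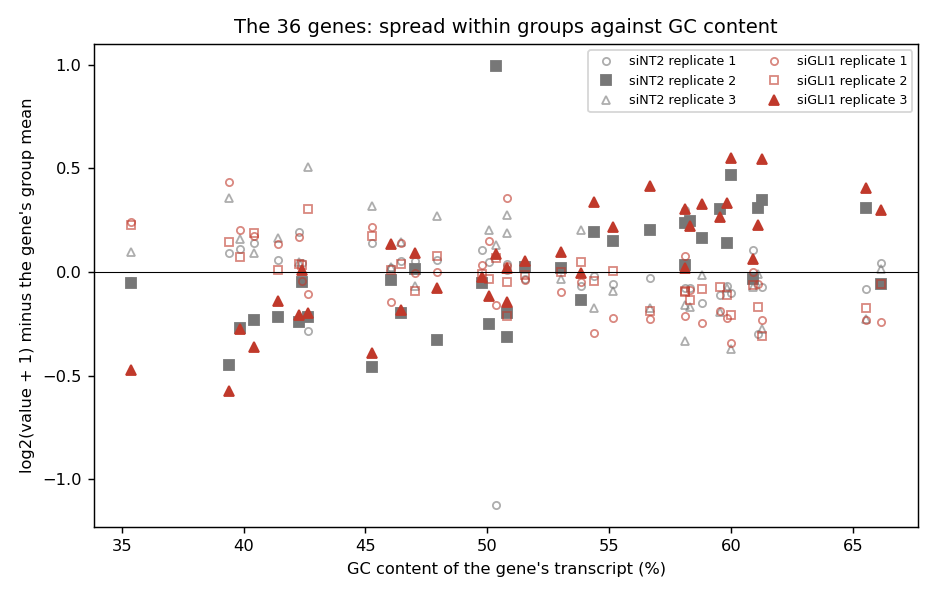
Deviation of each library from its group mean, on the log2(normalised read count + 1) scale (y axis), against the GC content in percent of the gene's transcript (x axis) for the 36 genes. Filled symbols are siNT2 replicate 2 and siGLI1 replicate 3, which lie mostly under 0 at low GC content and above 0 at high GC content; open symbols are the other four libraries.

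The 3′ untranslated regions (3′ UTRs) of 5 members held the heptamer GCACCTC, which was singled out from these data before. Short matches in 3′ UTRs are known as places where an siRNA can lower transcripts other than its target, and the sequences of the siRNAs were not used here. Of all tested genes with the heptamer (1103 genes) 18.9% were called lower and 6.07% higher, and of those without it (11973 genes) 7.12% and 8.32%. Because the heptamer was picked from these same data, this difference is a description and not a test. Among the members, MTHFD2, SLC7A5 and XBP1 held it and fell, TRIB3 held it and rose, and DNAJC3 held it and did not pass the test. Of the 31 members without it, 3 fell and 5 rose. The sites are shown because they lie in 3 of the 6 members that fell; its part in those differences was not tested. They are given from GENCODE release 29 on GRCh38, 5′ to 3′ on the transcript's strand with the heptamer in capitals, at chr2:74214521-74214550 (plus strand) in MTHFD2, chr16:87831942-87831971 (minus) in SLC7A5, chr22:28795436-28795465 (minus) in XBP1, chr20:397055-397084 (plus) in TRIB3 and chr13:95791546-95791575 (plus) in DNAJC3.
MTHFD2: tcactttgtcaaGCACCTCagttacacatt
SLC7A5: ctcccggcctagGCACCTCcccgctctccc
XBP1: aaaatcgaggaaGCACCTCtcagcccctca
TRIB3: gctggtgctcagGCACCTCtgtccaaggac
DNAJC3: gtgcatgtgtttGCACCTCtgtggtctgtc

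The counts of genes upstream of both arms stand beside 7.21% of all tested genes called higher and 8.0% called lower. A list of 14 genes held eIF2α kinases, eIF2 and eIF2B subunits, the constitutive phosphatase partner and DNAJC3 of the ER chaperone arm. Of these 1 was called, EIF2S1, which encodes eIF2α itself. It rose from 1600 ± 223 to 2427 ± 329 (SD, n = 3 each, log2 fold change 0.60, adjusted p = 0.0468). EIF2AK2 (PKR), the kinase activated by double-stranded RNA, read 298.2 to 478.5 in siNT2 and 479.0 to 760.3 in siGLI1 (adjusted p = 0.0981). The ER kinase EIF2AK3 (PERK) and the amino acid sensor EIF2AK4 (GCN2) had log2 fold changes of 0.36 and 0.02 and did not pass the test. The list of 10 tested ER stress sensors and their proteases held ERN1 of the ER chaperone arm, and EIF2AK3 again. Of these 1 was called, ATF6B, a relative of ATF6, which fell by 1.18 (standard error 0.29, adjusted p = 0.0315). MBTPS2, the protease that completes the release of ATF6, read 314.4 to 475.3 in siNT2 and 486.9 to 962.2 in siGLI1 (adjusted p = 0.0824). Leaving out 1 library ended the call of EIF2S1 for every library but siGLI1 replicate 3 (adjusted p up to 0.19), and that of ATF6B for siGLI1 replicate 2 and each siNT2 library (up to 0.0971).

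Of 14 other factors and secreted products linked to ATF4, 6 rose and 1 fell, with a median log2 fold change of 0.47. That is 42.9% called higher and 7.14% lower, against 7.21% and 8.0% of all tested genes. The list was chosen with earlier results of these data known. GDF15, a secreted stress hormone that curbs appetite, rose from 210.5 ± 35.4 to 971.5 ± 103 (SD, n = 3 each, log2 fold change 2.21, standard error 0.17, adjusted p = 0.000514). INHBE, a secreted inhibin subunit of the TGF-beta family, rose by 1.59 (standard error 0.15, adjusted p = 0.00127), from 587.7 to 743.4 in siNT2 to 1739.2 to 2245.2 in siGLI1. STC2, a secreted glycoprotein of ER stress, read 4464.6 to 4787.6 and 8959.6 to 9670.0, a rise by 1.02 (adjusted p = 0.00173). The groups were far apart in all 3. DDIT3 (CHOP), the factor that drives death under lasting ER stress, rose from 1504 ± 145 to 2445 ± 244 (SD, n = 3 each, log2 fold change 0.70, adjusted p = 0.0162). GADD45A (log2 fold change 1.0) and CEBPD (1.16) made up the 6. TXNIP, which binds thioredoxin, fell by 0.75 (adjusted p = 0.0344). GDF15, INHBE, STC2 and GADD45A kept their calls whichever library was left out. DDIT3 and TXNIP lost theirs without siNT2 replicate 1 or 3 or siGLI1 replicate 2 (adjusted p up to 0.0945 and 0.126), and CEBPD without siGLI1 replicate 2 (0.0562). Several of these genes also answer to p53 or to other stress pathways. INHBE and DDIT3 lie on chromosome 12, as does GLI1, the gene targeted by the siRNA. The part of that shared chromosome in their rise was not tested.

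Amino acid genes outside the arm moved both ways. Of 16 other genes of amino acid synthesis 4 were called, all lower, and the list's median was -0.46. ASL, which releases arginine, fell by 1.23 (standard error 0.26, adjusted p = 0.0191), and the aspartate transaminases GOT1 and GOT2 by 0.71 and 0.53 (adjusted p = 0.0281 and 0.0237). BCAT2, the mitochondrial branched-chain transaminase, fell by 0.77 (adjusted p = 0.0473), a call that edgeR did not make (adjusted p = 0.0525). With the GC trend removed 9 of the 16 were called, again all lower. Of 15 other amino acid transporters, SLC7A7 and SLC38A4 rose and SLC36A1 fell. That is 13.3% called higher and 6.67% lower, against 7.21% and 8.0% of all tested genes. SLC7A7, another light chain of SLC3A2, rose from 680.5 to 871.6 in siNT2 to 1594.8 to 1714.6 in siGLI1 (log2 fold change 1.08, standard error 0.14, adjusted p = 0.0032). It thus moved opposite to SLC7A5, with which it shares SLC3A2. SLC36A1, a lysosomal amino acid exporter whose 3′ UTR held 2 of the heptamers, fell by 1.36 (standard error 0.21, adjusted p = 0.00635). SLC7A7 and SLC36A1 kept their calls without any single library. GOT2 and BCAT2 kept theirs only without siGLI1 replicate 3 (adjusted p up to 0.134 and 0.187), GOT1 only without that library or siNT2 replicate 2 (up to 0.139), and SLC38A4 only without that library or siNT2 replicate 3 (up to 0.114). ASL lost its call without siNT2 replicate 1 or siGLI1 replicate 2 (up to 0.0962).

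Of 12 other serine, glycine and one-carbon genes 1 was called, MTHFD2L, the relative of MTHFD2, which rose from 103.0 ± 20.9 to 199.4 ± 51.3 (SD, n = 3 each, log2 fold change 0.93, adjusted p = 0.0475) while MTHFD2 fell. Of 20 cytosolic tRNA synthetases, a class of known ATF4 targets, WARS1 fell by 0.64 on the log2 scale (adjusted p = 0.0102). Fitted values were above 0 in 17 of the 20, with a median of 0.17. MTHFD2L kept its call only when siGLI1 replicate 3 was the library left out (adjusted p otherwise up to 0.189), and WARS1 lost its call without siNT2 replicate 1 or siGLI1 replicate 2 (up to 0.073).

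Of 23 other ER folding genes 2 were called, both lower, which is 8.70% against 8.0% of all tested genes. P4HB, the founding disulfide isomerase, read 11008.2, 13075.2 and 10315.6 in siNT2 and 4690.2, 4805.9 and 6559.9 in siGLI1, a fall by 1.11 (standard error 0.17, adjusted p = 0.00637), where PDIA4 fell by 0.47. MOGS, which trims glucose from new glycans, fell by 0.72 (adjusted p = 0.0285). Of 21 other genes of ER-associated degradation 1 was called, the ubiquitin-conjugating enzyme UBE2G2, which rose by 0.52 (adjusted p = 0.0192). P4HB kept its call without any single library, MOGS and UBE2G2 only without siGLI1 replicate 3 (adjusted p otherwise up to 0.126 and 0.109). Of 23 genes of the translocon and signal sequence handling limma called 0, with 5 higher and 1 lower at an unadjusted p under 0.05, while edgeR called 0 and DESeq2 3 higher.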

How the data were processed

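The 6 libraries, 3 siNT2 and 3 siGLI1, were grouped by their titles, and column-purified, DNase-treated RNA was used with an mRNA kit of Illumina, per the labels' protocols. The submitters' processing notes list, without roles, the build hg19, DESeq2 2.11.40.6, featureCounts, Subread 1.6.4, Bowtie2 2.3.3.1, Trim Galore 0.4.5 and bcl2fastq. Strand setting, annotation and treatment of reads with several matches: not given in the sources used here. The deposited values are a signal per gene, which the authors scaled by a single size factor for each library without regard to gene length. Whole reads were recovered in 100.0% of values (tolerance 0.01 reads), 13673977 to 18947614 per library. A count of 0 allows up to 3 reads, for counting error only.

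Entrez numbers were named from a RefSeq table of GRCh38.p14, which matched 23696 of 25702 (92.2%). GC content, lengths and 3′ UTRs came from GENCODE release 29 transcripts (GC content for 14647 genes, 93.8% of those tested), and promoters from RefSeq on GRCh38.p14. The main test was limma 3.58.1 in R 4.3.3 (lmFit, eBayes with trend, group only, two-sided) on log2(value + 1) for the 15622 genes with a mean of 10 or more, with Benjamini-Hochberg adjustment over all of them and a threshold of 0.05. This scale understates changes of low genes. Count tests on the recovered reads with edgeR 4.0.16 and DESeq2 1.42.0 were alternatives, beside other pseudocounts (0.5 and 8), filters, TMM and quantile scaling, a GC correction (spline with 5 degrees of freedom), the replicate number as a block, library weights and leaving out libraries; scripts were tested on simulated data. Tables and figures were made in Python 3.11.15 with numpy 2.4.6, pandas 2.3.3 and matplotlib 3.10.9.

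The 36 genes, the 14 other pathway lists and the 4 marker lists were chosen with earlier results of these data known. Named are GLI1, the 36 genes and up to 3 genes of each other list with the smallest p-values; DDIT3, GADD45A, CEBPD, TXNIP, BCAT2, EIF2AK3, EIF2AK4, HSPB1, CHORDC1, BAG3, HBB, the heptamer, the per-kilobase comparison of SLC7A5 with SLC3A2 and the genes that overlap or copy a member were chosen after their values were seen. Some genes of the other lists are not reported here.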

Additional observations from a re-analysis of the deposited data

How the results depend on the processing

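Pseudocounts of 0.5 and 8, no filter, TMM scaling, edgeR and DESeq2 left the calls and directions of all 36 genes as reported; quantile normalisation ended that of CALR, and the filter at a mean of 50 left 33 genes, without NUPR1, CHAC1 and ERN1, with their calls as reported. Genes called, 2376 as reported, were 4906 with the GC correction, 3872 with the replicate block and GC correction, 8274 with library weights, 970 with the replicate block, 4592 without siNT2 replicate 2 and siGLI1 replicate 3 (a setting added after the data were seen), and 641 to 3267 without single libraries. ATF4 arm genes called higher were 10 with the GC correction, 8 with block and GC correction, 9 with library weights, and 4 to 6 without single libraries; those called lower were 3 without any single library and 4 with library weights. ER chaperone arm genes called higher and lower were 3 and 4 with the GC correction, 1 and 3 with block and GC correction (CALR lost, HYOU1 added), 0 and 0 with the replicate block in limma (1 and 4 at an unadjusted p under 0.05; HERPUD1, PDIA4, CALR and XBP1 lost), 4 and 6 with library weights, 4 and 5 without both libraries, and 0 to 4 and 0 to 3 without single libraries. Signs of fitted values turned where values were near 0: the log2 fold change of ATF4 was -0.0446 with library weights, -0.0228 without both libraries and -0.12 to 0.20 without single libraries; the log2 fold change of ATF5 0.013 with the GC correction, with or without the block, and -0.43 to 0.0751 without single libraries; the log2 fold change of CHAC1 0.1035 likewise and -0.37 to 0.0793; and the log2 fold change of SEL1L -0.0843 likewise and -0.12 to 0.39. Same-numbered libraries share a code in the labels whose meaning is not given. Their deviations correlated at 0.49, -0.11 and -0.61, and not every siNT2 library correlated best with its own number. The number was not taken as a pairing, but these correlations cannot show whether the libraries were prepared in pairs. The cause of these differences between settings was not tested. Groups of 3 and the reads per library limit what could be shown for NUPR1, CHAC1 and ERN1.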

Other observations

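Stress programmes beside the 2 arms held single genes that changed. Of 17 target genes of NRF2, the oxidative stress factor, HMOX1 rose and FTH1 fell. HMOX1, the heme-degrading enzyme, read 171.3, 201.8 and 165.1 in siNT2 and 543.2, 685.0 and 828.6 in siGLI1 (log2 fold change 1.91, standard error 0.19, limma adjusted p = 0.00133) and kept its call without any single library. FTH1, the ferritin heavy chain, fell by 0.72 on the log2 scale (limma adjusted p = 0.0321). FTH1 kept its call only without siGLI1 replicate 3 or siNT2 replicate 3 (adjusted p otherwise up to 0.147). The median of the list was 0.01.

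Of 20 cytosolic heat shock genes, 4 rose and 2 fell. The small heat shock genes HSPB1 and HSPB8 rose by 1.22 and 1.03 on the log2 scale, and CHORDC1 and BAG3 by 0.70 and 0.49. HSPA1A and HSPA1B fell by 0.69 and 0.76 (adjusted p = 0.0141 and 0.00812), but they are near-identical copies whose reads may not be separable. Leaving out siNT2 replicate 1 or siGLI1 replicate 2 ended all 6 calls. So did siNT2 replicate 3 for HSPB1, siNT2 replicate 2 for HSPB8, any library but siGLI1 replicate 3 for CHORDC1 and any library for BAG3, with adjusted p-values of up to 0.0997, 0.103, 0.169 and 0.15. Of 15 mitochondrial protein stress genes 1 was called, DELE1, which carries mitochondrial stress to the eIF2α kinase EIF2AK1, and it fell from 1233 ± 93.8 to 794.8 ± 22.3 (SD, n = 3 each, adjusted p = 0.016). Its call ended without siNT2 replicate 1 or 3 or siGLI1 replicate 1 or 2 (up to 0.0917), and its 3′ UTR held 1 copy of the heptamer GCACCTC. Of 17 genes of the mTORC1 pathway 1 was called, DEPDC5, which fell by 0.52 (adjusted p = 0.0499), a call kept only without siGLI1 replicate 3 (otherwise up to 0.18); edgeR did not make it.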
